A study of Mus musculus with 6 samples.

Results

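Gene expression in the testis of C57BL/6 mice was set against that of AKR/N and MRL/MpJ-+/+ mice, and the genes described are those for which both C57BL/6 arrays lay above or below all 4 arrays of the other strains. Total RNA from testes of 8-week-old animals was extracted with Trizol and hybridised to 3′ expression arrays, with 2 mice and 2 arrays per strain, 6 arrays in all. MRL/MpJ-+/+ is the MRL background with the wild-type Fas gene. The substrain of the C57BL/6 mice was not given in the sources used here. Of 14477 genes tested, 1914 (13.2%) were called at an adjusted p below 0.05, 877 higher (6.06%) and 1037 lower (7.16%). Of these, 1727 (11.9% of the genes tested) had C57BL/6 arrays that did not overlap with the others, 765 of them higher in C57BL/6 (5.28%) and 962 lower (6.65%). A gene with several probe sets was represented by the brightest one that was tested. The test was limma's, on log2(intensity + 16), of C57BL/6 minus the mean of the AKR/N and MRL/MpJ means, with Benjamini-Hochberg adjustment over all 29692 tested probe sets. Such log2 differences understate the change of genes with values near or below the 16 units added. With 2 mice a strain, the number of arrays limits the precision of every value.

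Inbred strains are each close to homozygous, so mice of a strain share nearly all of their alleles, whereas different strains carry different alleles at many loci. The testis holds seminiferous tubules, in which spermatogonia, meiotic spermatocytes and spermatids are nursed by Sertoli cells, and an interstitium with the androgen-making Leydig cells, macrophages and vessels. Markers of the labelled tissue were high on every array. The protamine Prm1, which packs sperm DNA, read 7370 to 8906 units, and the summed level of 9 germ cell markers was 48160 to 53820 units in C57BL/6, 46040 to 48140 in AKR/N and 45000 to 50170 in MRL/MpJ. Arrays of the same strain correlated at 0.98 to 0.985 over probe sets, with the C57BL/6 pair lowest. C57BL/6 arrays correlated with those of the other strains at 0.96 to 0.966. The second C57BL/6 array did so at 0.9597 to 0.9611 and the first at 0.9644 to 0.9663. That second array also had the highest median intensity, 30.7 units, against 28.0 to 28.9 on the other arrays.

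More probe sets set C57BL/6 apart than set either other strain apart, by count. Over probe sets, 3272 (11.0%) were called in C57BL/6 against the mean of the others, 1534 higher (5.17%) and 1738 lower (5.85%), and both C57BL/6 arrays lay beyond all 4 others in 8412 (28.3%), called or not. Called and non-overlapping together were 2970 probe sets (10%) for C57BL/6, 1353 higher (4.56%) and 1617 lower (5.45%), against 2092 (7.05%) when AKR/N was set against the other strains in the same way and 2138 (7.2%) for MRL/MpJ. These counts share arrays, and the difference between them was not tested. Where genes are counted in the settings that follow, the brightest probe set was used and not the mean over a gene's probe sets. Centring each array on its median left 1210 probe sets higher and 2098 lower, so the balance of directions depended on the scaling. The count was also sensitive to the spread assumed: 285 genes higher and 378 lower remained when the 4 other arrays were treated as 1 group, and without the second C57BL/6 array 404 were higher and 503 lower. Of the 1727 genes, 670 (38.8%) were called and non-overlapping with any 1 array left out, and 452 (26.2%), 192 higher and 260 lower, in each of the 14 alternative settings that did not tighten the filter on dim probe sets.

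Most differences were modest. The median log2 difference was 0.53 among the higher and -0.53 among the lower genes, and the smallest was 0.17 in size. A difference of at least 2-fold was found for 143 higher and 122 lower genes, and one of at least 4-fold for 25 and 15. Where every array read 100 units or more, 19 of 476 higher and 21 of 568 lower genes reached 2-fold. Just inside the threshold lay Spint1 and Mpp6, both with an adjusted p of 0.04996, and just outside it Pcsk1 and Snrnp27, both at 0.05003.

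The transcripts with the largest excess in C57BL/6 were mostly uncharacterised. 1700104B16Rik (chromosome 8) read 710 and 761 units in C57BL/6, 16.2 and 8.99 in AKR/N and 18.9 and 11.5 in MRL/MpJ, a log2 difference of 4.66 (SE 0.153, limma adjusted p = 4.495e-08). For 2010109A12Rik (chromosome 5), the values were 786 and 657 units in C57BL/6, 16.9 and 22.2 in AKR/N and 8.59 and 7.18 in MRL/MpJ (4.66, SE 0.137, limma adjusted p = 2.192e-08). Both other probe sets of 2010109A12Rik were called and non-overlapping in the same direction. In each of these the low strains lay near the level below which the dimmest 40% of probe sets on an array fall, 17.8 to 20.8 units, so no order among those strains can be read. 1700063D05Rik (chromosome 9) and 1700084F23Rik (chromosome 13) had the same form, with log2 differences of 4.17 and 3.40, and no array of the other strains above 10.2 units.

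Among characterised genes with the largest excess, Efhd2, a calcium-binding protein, read 696 and 775 units in C57BL/6, 108 and 105 in AKR/N and 49.3 and 37.4 in MRL/MpJ. Its difference of 3.14 (SE 0.109, limma adjusted p = 5.383e-08) was not matched by its other probe set, which differed by 0.18 and was not called (limma adjusted p = 0.2267), at 240 and 235 units against 186 to 229. Stk25, a serine/threonine kinase, read 511 and 505 units against 93.2 and 93.9 in AKR/N and 29.1 and 35.6 in MRL/MpJ. Here the other strains also differed from each other, with AKR/N above MRL/MpJ by 1.18 on the log2 scale (limma adjusted p = 0.0002136). Nnmt, which methylates nicotinamide, read 124 and 109 units in C57BL/6 and 9.82 or less on the other 4 arrays.

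Among genes at 100 units or more on every array, the largest excess was in Zfp991 and Abcc3. Zfp991, a zinc finger gene of chromosome 4, read 1134 and 1194 units in C57BL/6, 383 and 386 in AKR/N and 207 and 202 in MRL/MpJ (log2 difference 1.99, SE 0.0689, limma adjusted p = 5.383e-08), and its other 2 probe sets were also called and non-overlapping. Abcc3, an exporter of organic anions, read 583 and 488 units against 117 to 136 in the other strains (1.97, SE 0.0977). Itgb1bp1, which binds the tail of integrin beta 1, read 1607 and 1668 units in C57BL/6 and 603 to 730 in the others. Dctn6, a subunit of the dynein activator dynactin, read 827 and 742 units against 232 to 372. E2f5, a transcription factor of the E2F family, was high on both C57BL/6 arrays but uneven, at 794 and 1281 units, against 347 to 447. Both its other probe sets overlapped between strains and were not called, with differences of 0.10 and 0.18 (limma adjusted p = 0.6749 and 0.2878). On the brightest probe set, all 5 genes kept their call in every setting named above.

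**Figure D1:**
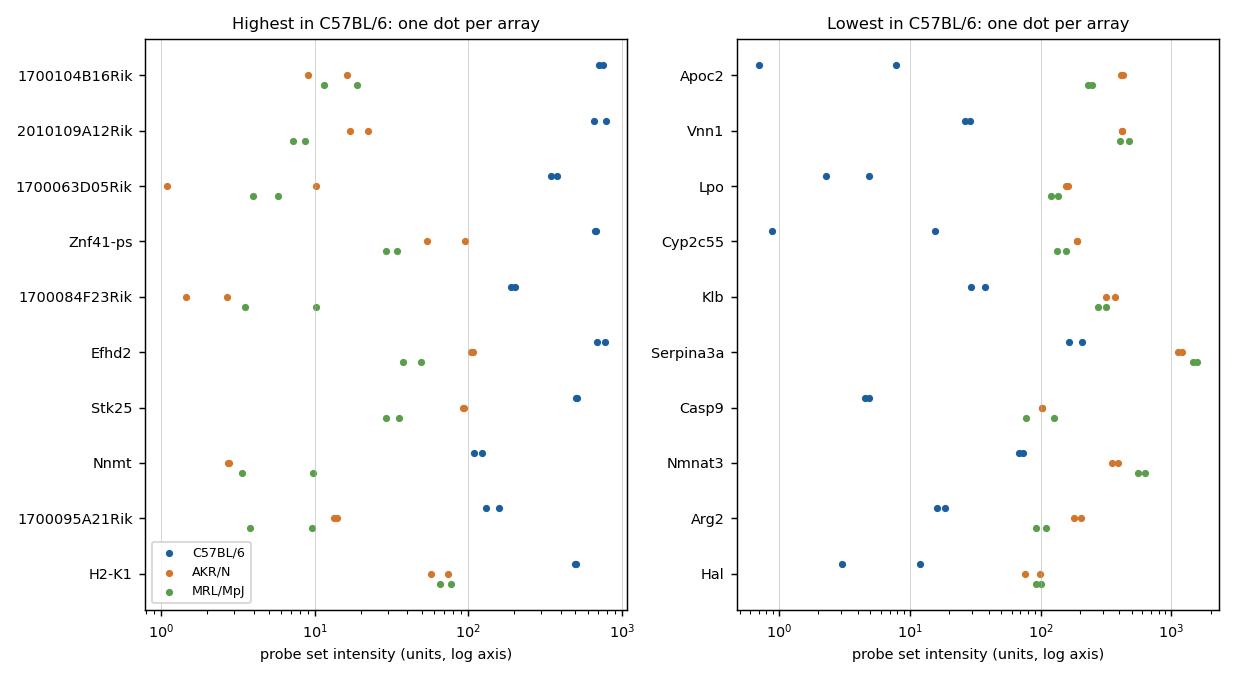
Probe set intensity (log axis) on each of the 6 arrays, one dot per array, coloured by strain. Rows are the 10 genes with the largest log2 difference in each direction. Only genes whose other tested probe sets, if any, had the same sign were eligible. Both C57BL/6 dots lie beyond the 4 others in every row by the choice of genes. The low side of many rows falls below 20 units, where values have no order.

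On the low side, the largest deficit was that of Apoc2. This gene, which encodes the apolipoprotein that activates lipoprotein lipase, read 0.705 and 7.86 units in C57BL/6, 411 and 425 in AKR/N and 247 and 230 in MRL/MpJ (log2 difference -4.06, SE 0.141, limma adjusted p = 5.383e-08). Vnn1, a pantetheinase, read 26.4 and 29.1 units in C57BL/6 and 402 to 474 in the others (-3.34, SE 0.0972), and its other probe set also had a negative difference. Lpo, lactoperoxidase, read 2.3 and 4.89 units in C57BL/6 and 120 to 162 in the others. Klb, the co-receptor beta-Klotho through which endocrine fibroblast growth factors signal, read 37.8 and 29.5 units against 273 to 372. The 2 C57BL/6 values of these genes lay below 40 units throughout, and the values of the other strains did not come near them.

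Casp9, the initiator caspase of the mitochondrial pathway of cell death, read 4.53 and 4.85 units in C57BL/6, 102 and 103 in AKR/N and 127 and 78.0 in MRL/MpJ. Its difference of -2.50 (SE 0.178, limma adjusted p = 1.02e-05) had the sign of both its other probe sets, but those read 28.7 to 43.5 units in C57BL/6. They differed by -0.59, which was called, and by -0.22, which was not (limma adjusted p = 0.5338). Nmnat3, which makes NAD in mitochondria, read 73.4 and 68.9 units against 350 and 392 in AKR/N and 625 and 557 in MRL/MpJ. Its other probe set read 66.2 and 94.8 units in C57BL/6, 594 and 606 in AKR/N and 36.5 and 47.7 in MRL/MpJ, so the deficit against MRL/MpJ was not seen there. Arg2, the mitochondrial arginase, read 18.7 and 16.2 units against 92.6 to 205, and Hal, which breaks down histidine, read 3.02 and 11.9 units against 75.5 to 101. Among genes bright on every array, 1700097N02Rik (chromosome 17) read 530 and 537 units in C57BL/6, 2074 and 2114 in AKR/N and 3008 and 3054 in MRL/MpJ (-2.21, SE 0.0536, limma adjusted p = 6.68e-09), and both its other probe sets were called in the same direction.

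The difference was not always shared by both of the other strains. Of the 1727 genes, 801 (46.4%) were also called in C57BL/6 against AKR/N and against MRL/MpJ taken singly, 384 against AKR/N only, 416 against MRL/MpJ only and 126 against neither. Over all tested genes, 1719 (11.9%) were called against AKR/N and 1767 (12.2%) against MRL/MpJ. These comparisons share the C57BL/6 arrays. AKR/N and MRL/MpJ differed from each other in 240 of the 1727 genes (13.9%), beside 8.74% of all tested genes. Ccdc38, a coiled-coil protein gene, is such a case: it read 1457 and 1448 units in C57BL/6, 1326 and 1191 in AKR/N and 257 and 251 in MRL/MpJ. Only MRL/MpJ was far from C57BL/6 there, and the call was lost when AKR/N and MRL/MpJ were treated as 1 group (limma adjusted p = 0.323). On the other probe set of Ccdc38, both AKR/N arrays lay above C57BL/6. It read 648 and 636 units in C57BL/6, 879 and 669 in AKR/N and 137 and 100 in MRL/MpJ. Fcgr3, an activating Fc receptor of macrophages, read 152 and 145 units in C57BL/6, 248 and 225 in AKR/N and 650 and 684 in MRL/MpJ, and its call was lost in the same way (limma adjusted p = 0.13). Cyp2f2, a cytochrome P450, read 15.0 and 2.34 units in C57BL/6 and 17.9 and 20.7 in AKR/N, with 196 and 210 in MRL/MpJ. The reverse held for Hoxb5os, which read 665 and 673 units in C57BL/6, 302 and 331 in MRL/MpJ and 31.3 and 15.2 in AKR/N. Rd3 read 283 and 259 units in C57BL/6, 189 and 196 in AKR/N and 3.60 and 4.25 in MRL/MpJ. These last 2 genes were chosen after their values were seen.

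**Figure D2:**
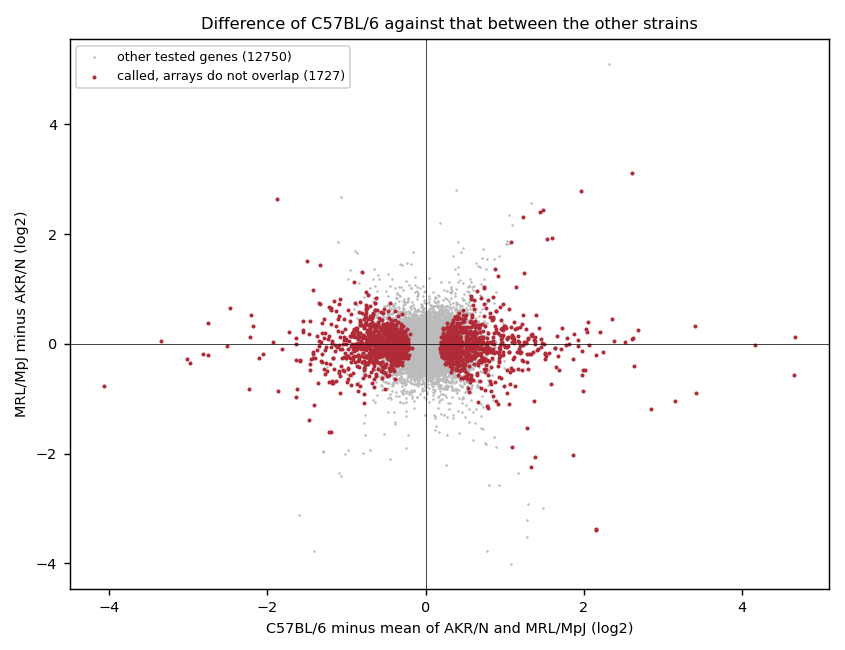
Each of 14477 tested genes by the log2 difference of C57BL/6 minus the mean of the other strains (horizontal) and of MRL/MpJ minus AKR/N (vertical), with the 1727 called, non-overlapping genes in red. AKR/N and MRL/MpJ were called different from each other in 240 of the red points, which lie away from the horizontal line.

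Of the called genes of fatty acid synthesis and desaturation, all but 1 were lower in C57BL/6. These enzymes build long-chain fatty acids from acetyl-CoA, introduce double bonds and elongate the chains, and sperm membranes are rich in the polyunsaturated products. Of 23 tested members of the list, 10 were lower with non-overlapping arrays and 1 was higher, together 47.8%, beside 11.9% of all tested genes. The median log2 difference was -0.335, against -0.004 over all tested genes. Fads1, the delta-5 desaturase, read 247 and 188 units in C57BL/6, 680 and 809 in AKR/N and 417 and 475 in MRL/MpJ (-1.35, SE 0.113, limma adjusted p = 3.05e-05). A further probe set of Fads1 differed by -0.44 and was not called (limma adjusted p = 0.06452). It read 42.8 and 43.2 units in C57BL/6 and 48.4 and 45.3 in MRL/MpJ. Scd1 and Scd2, neighbouring stearoyl-CoA desaturase genes of chromosome 19, were lower by log2 differences of -1.14 and -0.75. Scd2 read 920 and 845 units in C57BL/6 against 1416 to 1603 in the others. Elovl5, which elongates polyunsaturated chains, read 539 and 488 units against 774 to 944 (-0.72, SE 0.0741). Acsbg1, an acyl-CoA synthetase of steroidogenic cells and brain, read 497 and 426 units against 624 to 839. These 5 genes kept their call in every setting. Fads2, Acacb, Acly, Fasn and Me1 were also called lower, and Acsl5 higher (0.30), with less margin: the call of Fasn was lost in 5 of 6 fits that left out 1 array (adjusted p up to 0.337), as was that of Acsl5 (up to 0.187), and that of Acacb in 3 (up to 0.127). The list's count was 5 without the variance trend and 6 with the other arrays as 1 group.

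Apolipoproteins and lipid carriers showed the same direction. Of 19 tested, 7 were lower with non-overlapping arrays and none was higher (36.8%, beside 11.9% of all tested genes), with a median of -0.256. Apoc2, Apoc1 and Apoe are neighbours on chromosome 7, and whether they differed independently was not tested. Beside Apoc2, Apoc1 read 141 and 96.3 units in C57BL/6, 194 and 228 in AKR/N and 423 and 326 in MRL/MpJ (-1.16, limma adjusted p = 0.0005792). Apoe, the main carrier of cholesterol between cells, read 362 and 352 units in C57BL/6, 483 and 530 in AKR/N and 699 and 644 in MRL/MpJ (-0.68, SE 0.0739). Cd36, the receptor for fatty acids and oxidised lipoproteins, read 112 and 77.0 units against 252 to 260 in the other strains (-1.32, SE 0.122), and both its other probe sets had the same sign. Fabp5, a fatty acid binding protein, read 186 and 158 units against 299 to 440. In cholesterol synthesis, 3 of 18 genes were lower and 1 was higher (22.2% together, beside 11.9% of all tested genes). The count of 3 was 5 with median centring, with the filter at the 60th percentile or without the first MRL/MpJ array, and 1 without the variance trend. Among them was Msmo1, a sterol oxidase, at 94.7 and 107 units against 201 to 264 (-1.02, SE 0.111). The fat cell markers Fabp4 and Car3 moved with these lists. Fabp4 read 12.4 and 2.09 units in C57BL/6, 172 and 49.6 in AKR/N and 49.9 and 40.5 in MRL/MpJ, while Adipoq, which defines fat cells, overlapped between groups at 131 and 148 units in C57BL/6 and 146 to 174 in the others. The summed level of the 3 fat cell markers was 151 to 177 units in C57BL/6, 261 to 538 in AKR/N and 241 to 253 in MRL/MpJ, and 3 of 7 tested genes of the fat cell list, Scd1 among them, were lower and none was higher (1 without the second C57BL/6 array or the variance trend). The calls of Fabp4 and Car3 were lost without the second C57BL/6 array (adjusted p of 0.0951 for Fabp4 and up to 0.0895 for Car3). The part of fat cells in these results was not tested.

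All called Leydig cell genes were lower in C57BL/6. In these cells cholesterol enters mitochondria through Star and is turned into testosterone, with Cyp17a1 and Hsd17b3 at the later steps. Of 11 tested genes of the list, 5 were lower with non-overlapping arrays and none was higher, with a median of -0.294. These 5 were 45.5% of the list, beside 11.9% of all tested genes. Cyp17a1 read 1943 and 1800 units in C57BL/6, 3203 and 3504 in AKR/N and 3237 and 3430 in MRL/MpJ (-0.83, SE 0.0602, limma adjusted p = 1.09e-05). Hsd17b3, which makes testosterone from androstenedione, read 178 and 181 units in C57BL/6 and 466 to 520 in the others (-1.37, SE 0.0733, limma adjusted p = 1.28e-06). Both kept their call in every setting. Star read 212 and 151 units against 272 to 362 (-0.70, SE 0.131), with all 3 of its probe sets called lower, but its call was lost without the second C57BL/6 array (limma adjusted p = 0.0771). Nr5a1 and Fdx1 made up the 5. Hsd3b1 and Cyp11a1 were called lower too, but their arrays overlapped with those of another strain. Without the variance trend 2 of the 5 were left. The calls of Nr5a1 and Fdx1 were also lost without the second C57BL/6 array and without the second AKR/N array. The summed level of the Leydig cell markers Cyp17a1, Star and Hsd3b1 was 2493 to 2629 units in C57BL/6, 3937 to 4406 in AKR/N and 4458 to 4552 in MRL/MpJ, although Hsd3b1 by itself overlapped between C57BL/6 and AKR/N. In whole testis, fewer cells of a type and less RNA per cell cannot be told apart.

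Several enzymes of glutathione conjugation and peroxide defence were also lower. Glutathione transferases couple glutathione to reactive compounds, and in the testis they are made both in Leydig and germ cells. Of 22 tested transferases, 7 were lower and none was higher (31.8%, beside 11.9% of all tested genes), with a median of -0.218. Gsta4, which detoxifies products of lipid peroxidation, read 454 and 455 units in C57BL/6 and 827 to 876 in the others (-0.88, SE 0.0631, limma adjusted p = 1.02e-05). Gstm1 read 1635 and 1653 units against 2159 to 2781 (-0.55, SE 0.0705), and all 3 of its other probe sets had the same sign. Gstm2 read 1255 and 1235 units in C57BL/6, 1658 and 1730 in AKR/N and 2274 and 2452 in MRL/MpJ (-0.68, SE 0.0573). Mgst1, Gstp1 and Gstk1 were called lower with any 1 array left out, whereas Gstm4 lost its call in all 6 such fits (adjusted p up to 0.137). Gstm1, Gstm2 and Gstm4 are neighbours on chromosome 3. The Gstm genes are close copies of one another, and their probe sets may share signal. Of 26 genes of peroxide defence, 7 were lower and 1, Gclc, was higher, with a median of -0.106. Together they were 30.8% of the list, beside 11.9% of all tested genes. Nnt, the mitochondrial transhydrogenase that supplies NADPH, read 369 and 391 units in C57BL/6, 645 and 743 in AKR/N and 560 and 615 in MRL/MpJ (-0.72, SE 0.0802, limma adjusted p = 0.000238). Gpx6, a glutathione peroxidase, read 186 and 215 units against 308 to 328. Those 2 kept their call in every setting, and the list's count fell to 4 without the second C57BL/6 or the second AKR/N array and with the other arrays as 1 group, and to 3 without the variance trend. The calls of Gpx1 (adjusted p of 0.0648 without the second C57BL/6 array), Txn1 (up to 0.097), Sod2 (up to 0.244), Gpx7 (up to 0.14) and Gclc (up to 0.179) each depended on 1 or more single arrays.

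Of the 8 tested genes with DNA variants known among laboratory strains, 4 were lower in C57BL/6 and none was higher: Nnt, Alad, Glo1 and Wdfy1. These 4 were 50% of the list, beside 11.9% of all tested genes. Alad, an enzyme of haem synthesis that occurs in tandem copies in some strains, read 167 and 167 units in C57BL/6, 504 and 511 in AKR/N and 414 and 484 in MRL/MpJ (-1.43, SE 0.0833, limma adjusted p = 2.34e-06). Glo1, which clears methylglyoxal and also varies in copy number among strains, read 196 and 255 units in C57BL/6, 335 and 334 in AKR/N and 468 and 457 in MRL/MpJ (-0.78, SE 0.0992), with 3 probe sets called lower. Wdfy1, an endosomal protein, read 686 and 561 units against 1012 to 1360, and its 3 other probe sets had the same sign. All 4 kept their call in every setting. Cox7a2l, Crb1, Ahr and Pla2g2a did not pass the test, with log2 differences of -0.13, 0.07, 0.25 and 0.53.

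**Figure D3:**
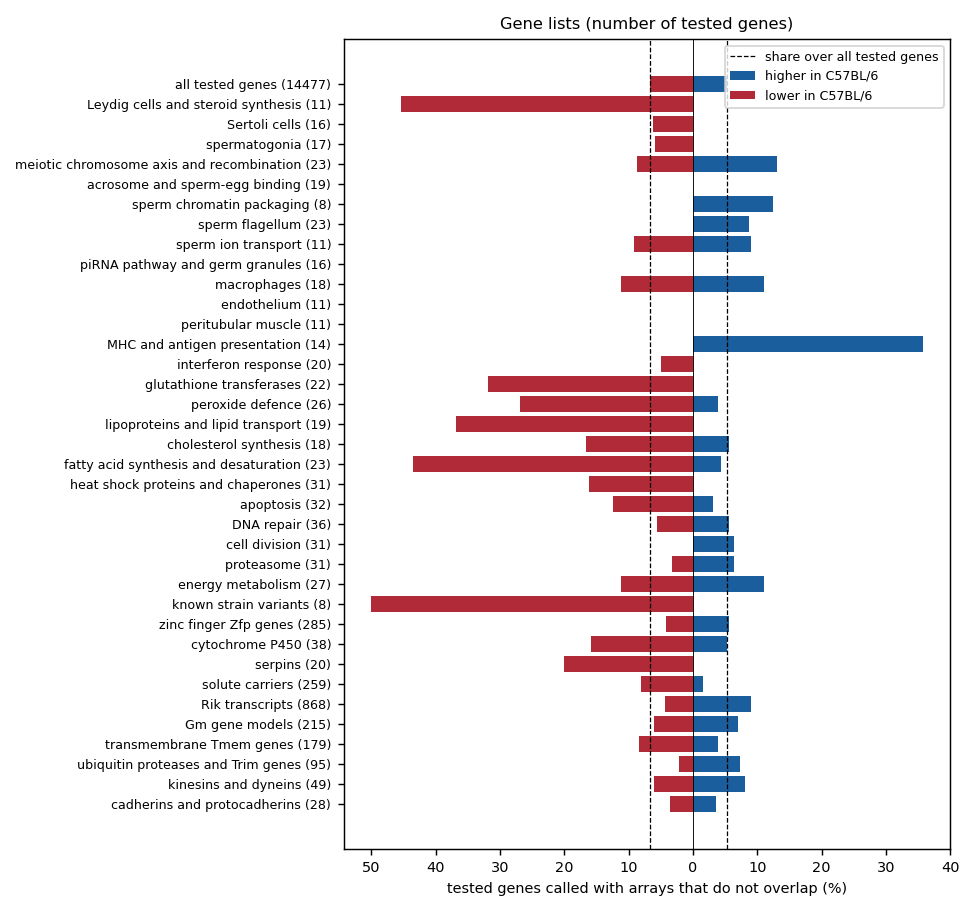
Share of the tested genes of each list that were called with non-overlapping arrays, higher (right) or lower (left) in C57BL/6, with the number tested in parentheses and the shares over all 14477 genes as dashed lines. Lists of fatty acid, lipoprotein, glutathione transferase, Leydig cell and peroxide defence genes extend to the left, the MHC list extends to the right, and lists of few genes have coarse shares.

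All 5 called genes of the MHC list were higher in C57BL/6, while H2-DMb2, which is not on that list, was lower. These genes encode the molecules that present peptides to T cells, and they lie in the H2 complex of chromosome 17, one of the regions in which mouse strains differ most. Of 14 tested genes, 5 were higher in C57BL/6 with non-overlapping arrays and none was lower, with a median of 0.281. These 5 were 35.7% of the list, beside 11.9% of all tested genes. H2-K1 read 498 and 507 units in C57BL/6, 57.5 and 74.4 in AKR/N and 65.9 and 77.5 in MRL/MpJ (2.62, SE 0.116, limma adjusted p = 3.154e-07), and its 3 other probe sets agreed in sign. H2-D1 read 265 and 282 units against 32.0 to 50.5 (2.36, SE 0.115), and H2-Ab1, a class II chain, 108 and 118 units against 4.18 to 29.8. The count was 3 without the second C57BL/6 array, where H2-Aa reached an adjusted p of 0.0775. H2-M3 lost its call in 5 of 6 such fits (adjusted p up to 0.171). Not all H2 probe sets agreed: of the 4 further probe sets for H2-D1, 1 was called lower in C57BL/6, at 19.7 and 18.2 units against 87.6 to 121 (-1.78). H2-DMb2, a class II gene of the same complex that was looked at after its value was seen, read 4.38 and 17.7 units in C57BL/6 and 50.1 to 72.1 in the others (-1.55, SE 0.214, limma adjusted p = 0.0009841), and kept its call in every setting. B2m, the shared light chain of class I molecules, read 347 and 484 units in C57BL/6 and 342 to 482 in the others, with no order by strain. The summed level of the macrophage markers Cd68, Csf1r and Mrc1 overlapped, at 404 to 460 units in C57BL/6 and 437 to 484 in the others. Of 18 macrophage genes 2 were higher and 2 lower (22.2% together), beside 11.9% of all tested genes.

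Counts in the germ cell lists ranged from 0 of 19 acrosome genes to 5 of 23 meiotic genes (21.7%), beside 11.9% of all tested genes. None of 16 piRNA pathway genes and none of 19 acrosome genes was both called by limma and non-overlapping. In each list 1 gene was called, 2 and 6 genes had an unadjusted p below 0.05, and 0 were called with the other arrays as 1 group. Of 17 spermatogonial genes only Kit, the stem cell factor receptor, passed both criteria (-0.43, with the call lost in 5 of 6 fits without 1 array, adjusted p up to 0.124). At the meiotic chromosome axis and in recombination, 3 of 23 genes were higher and 2 were lower. Spo11, which makes the DNA breaks that start recombination, read 795 and 781 units in C57BL/6, 472 and 438 in AKR/N and 582 and 577 in MRL/MpJ (0.60, SE 0.0664, limma adjusted p = 0.000229). Smc1b, a meiotic cohesin subunit, read 1242 and 1268 units against 488 to 881 (0.85, SE 0.114). Meiob, which binds single-stranded DNA in recombination, went the other way, at 132 and 132 units against 211 to 244 (-0.75, SE 0.089). In the sperm tail list, 2 of 23 were higher. Akap3, an anchoring protein of the fibrous sheath, read 6258 and 6950 units in C57BL/6 and 3953 to 4351 in the others (0.65, SE 0.0612, limma adjusted p = 6.71e-05). A further probe set of Akap3 read 2345 and 2193 units against 1759 to 2071. It differed by 0.21 and was not called (limma adjusted p = 0.08029). Dnaic1 was the other, with a call lost without the second C57BL/6 array (adjusted p of 0.0618). Of 285 zinc finger genes named Zfp, 16 were higher and 12 lower (9.8% together). Of 868 transcripts known only by a Rik name, 79 were higher and 38 lower (13.5%). Both shares lay near the 11.9% of all tested genes. The median of the Rik transcripts, 0.071, fell to 0.026 with median centring. The 79 became 52 without the second C57BL/6 array or without the variance trend, and 40 with the other arrays as 1 group.

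Of 16 Sertoli cell genes 1 was called higher and 3 were called lower, and of these 4 only 1, a lower one, had arrays that did not overlap. Over all tested genes, 13.2% were called and 11.9% were called with arrays that did not overlap. None of 11 endothelial and none of 11 peritubular genes was called by limma, with 1 and 2 at an unadjusted p below 0.05 and 0 called in the fit with the other arrays as 1 group. The summed level of 4 Sertoli cell markers, of which 3 were tested, was 3974 to 4025 units in C57BL/6, 4249 to 4558 in AKR/N and 3892 to 3955 in MRL/MpJ. Most of each sum was Clu, at 3652 and 3719 units in C57BL/6. Of 5 red cell genes 2 were lower: Klf1, the erythroid transcription factor, read 32.5 and 33.4 units against 147 to 166 in the others (-1.81, SE 0.108), and Hbb-b2, a beta globin, 4.40 and 5.68 units against 18.9 to 48.3. Alas2, the erythroid enzyme of haem synthesis, overlapped at 86.7 and 100 units in C57BL/6 and 86.1 to 107 in the others, and Hba-a1 was too dim to be tested. Rnase10, made in the epididymis, read 68.8 and 78.0 units in C57BL/6 and 15.6 or less in the others (1.73, SE 0.21). The epididymal markers Lcn5 and Adam7 read 1.61 and 3.12 units and 0.616 and 13.1 units in C57BL/6, and were highest on the first AKR/N array at 118 and 63.5 units. The part of other tissue in the result for Rnase10 was not tested.

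Of 259 solute carrier genes, 21 were lower and 4 higher, together a smaller share than the 11.9% of all tested genes. The count of 21 fell to 6 without the variance trend or with the other arrays as 1 group, to 9 with no filter on dim probe sets, and to between 8 and 12 with any 1 array left out (8 without the second C57BL/6 or the second AKR/N array, 12 without the first C57BL/6 array). Slc7a5 and Slc3a2, the light and heavy chain of one amino acid transporter, were both lower. Slc7a5 read 364 and 360 units in C57BL/6 and 828 to 895 in the others (-1.19, SE 0.0653, limma adjusted p = 1.44e-06). Slc3a2 read 669 and 672 units against 924 to 1045 (-0.54, SE 0.0586). Serpins, inhibitors of serine proteases, were lower in 4 of 20 and higher in none. Serpina3a, Serpina5, Serpina3n and Serpina1c are neighbours on chromosome 12. Serpina3a read 207 and 165 units in C57BL/6, 1132 and 1211 in AKR/N and 1582 and 1467 in MRL/MpJ (-2.75, SE 0.0873). Serpina5, the protein C inhibitor, read 333 and 326 units against 816 to 1181 (-1.55, SE 0.0688). All 6 genes kept their call in every setting, and the serpins of this cluster are close copies whose probe sets may share signal.

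Some of the called genes were neighbours on a chromosome. Of 1720 such genes with a placed next tested gene, 257 (14.9%) were followed by another, beside 11.9% of all genes, and 139 of these 257 pairs (54.1%) had the same direction. There were 35 runs of 3 or more, the longest of 6. The run on chromosome 4 held Zfp980, Znf41-ps, Gm13238, 1700095A21Rik and Zfp991, all higher, with 4933438K21Rik lower among them. Znf41-ps read 666 and 684 units in C57BL/6, 96.0 and 53.8 in AKR/N and 29.2 and 34.5 in MRL/MpJ (3.41, SE 0.164, limma adjusted p = 5.697e-07). The run on chromosome 3 was mixed. Of its alcohol dehydrogenases, Adh1 read 92.2 and 75.0 units against 185 to 237 (-1.23, SE 0.119), and Adh5 was also lower (-0.50). Adh4, between them, read 182 and 171 units against 62.4 to 124.6 (0.81, SE 0.115). Adh7 was called higher as well (0.64), but its call was lost without the second C57BL/6 array (adjusted p of 0.107). Its other probe set differed by -0.67 with non-overlapping arrays, uncalled, and the mean over both turned the direction (-0.015). On chromosome 11, Drc3, Atpaf2 and, on its brightest probe set, Gid4 were called higher, with Atpaf2, an assembly factor of the ATP synthase, at 419 and 418 units against 183 to 205 (1.03, SE 0.0829). The mean over all probe sets of Gid4 turned its direction (-0.045), and its call was lost with the other arrays as 1 group (limma adjusted p = 0.228). The share of tested genes called was highest on chromosome 17 (16.3%) and chromosome 12 (15.4%) and lowest, among chromosomes 1 to 19 and X, on chromosome 10 (8.66%).

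The X chromosome, picked out after its values were seen, had nearly all of its calls in one direction. Of 469 tested X-linked genes, 47 (10.02%) were called and non-overlapping, 44 lower and 3 higher in C57BL/6, so that 93.6% of the calls were lower, against 54.7% (918 of 1677) on the autosomes. The shift was small over the chromosome: the median log2 difference was -0.069 for X-linked genes and -0.002 for autosomal genes, and 62.7% of the X-linked and 50.25% of the autosomal genes had a negative difference. It appeared against AKR/N (51 lower, 4 higher) and against MRL/MpJ (27 lower, 2 higher), which share the C57BL/6 arrays. Pgrmc1, a haem-binding membrane protein, read 955 and 870 units in C57BL/6 and 1270 to 1411 in the others (-0.57, SE 0.0648, limma adjusted p = 0.000277). Ddx3x, an RNA helicase, read 270 and 288 units against 370 to 416 (-0.45, SE 0.0771), and both its other probe sets had the same sign. Bex3 read 238 and 209 units against 301 to 333. Most of the 47 had little margin. The lower count was 8 without the variance trend and 9 with the other arrays as 1 group, and 26, 24, 27 and 19 when the first AKR/N, the second AKR/N, the second MRL/MpJ or the second C57BL/6 array was left out. The median of X-linked genes stayed below the autosomal one by 0.044 to 0.089 in all of these settings.

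**Figure D4:**
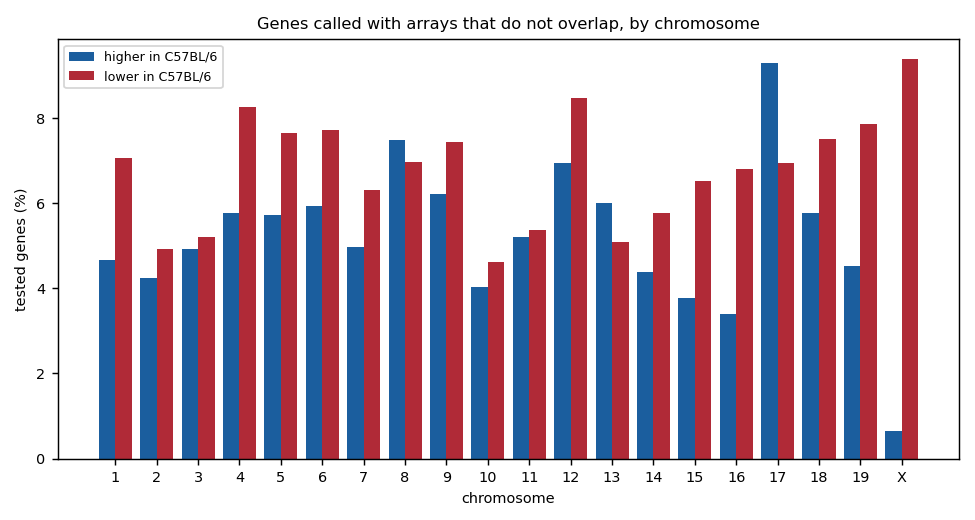
Share of tested genes on each chromosome that were called with non-overlapping arrays, higher or lower in C57BL/6 (bars from 0, in %). The X chromosome has 44 lower and 3 higher genes of 469 tested, and chromosome 17 has the highest total share, 16.3%.

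Where a gene was measured by more than 1 probe set, the others mostly had the sign of the brightest. Of the 1727 genes, 836 had other tested probe sets, 1409 in all. The same sign was found for 72.1% of those, the same non-overlap for 36.5%, and a call in the same direction for 20.7%. Over all tested genes, where the brightest probe set was taken whether called or not, these shares were 58.4%, 17.7% and 6.04% of 10573. Agreement in sign rose with the size of the difference, to 90% of 70 other probe sets for higher and 80% of 75 for lower genes of at least 2-fold. It also rose with the level of the other probe set, from 65.1% below 50 units to 74.1% from 50 to 200 units and 81.7% above. Leaving out the filter on dim probe sets lowered it to 67.8% of 1828. Genes with 3 or more probe sets all called and non-overlapping in one direction included Kcnip4 and Pxn among the higher and Mpzl2, Star, Glo1 and Gpt2 among the lower. Pxn, the adhesion protein paxillin, read 619 and 738 units in C57BL/6 and 337 to 480 in the others.

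In 39 genes a probe set was called in the direction opposite to the brightest (2.77% of the 1409). The brightest probe set of Prdx2, a peroxiredoxin, differed by -0.37, with 419 and 419 units in C57BL/6 and 519 to 563 in the others. Another read 126 and 149 units in C57BL/6 and 12.6 to 21.4 in the others, a difference of 2.25. Gfer, a sulfhydryl oxidase of mitochondria, differed by 0.87 on the brightest probe set and by -1.76 on another, at 97.2 and 83.6 units against 321 to 367. Mtrex, an RNA helicase, differed by 0.66 on the brightest and by -2.34 on another, with values of 1.1 and 4.53 units in C57BL/6 and 64.1 to 96.8 in the others. For these genes no direction can be given, although Prdx2 is among the 7 lower genes of peroxide defence. Whether differences between the strains in the sequence under the probes, or in the transcript isoforms they reach, entered any of the results was not tested.

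**Figure D5:**
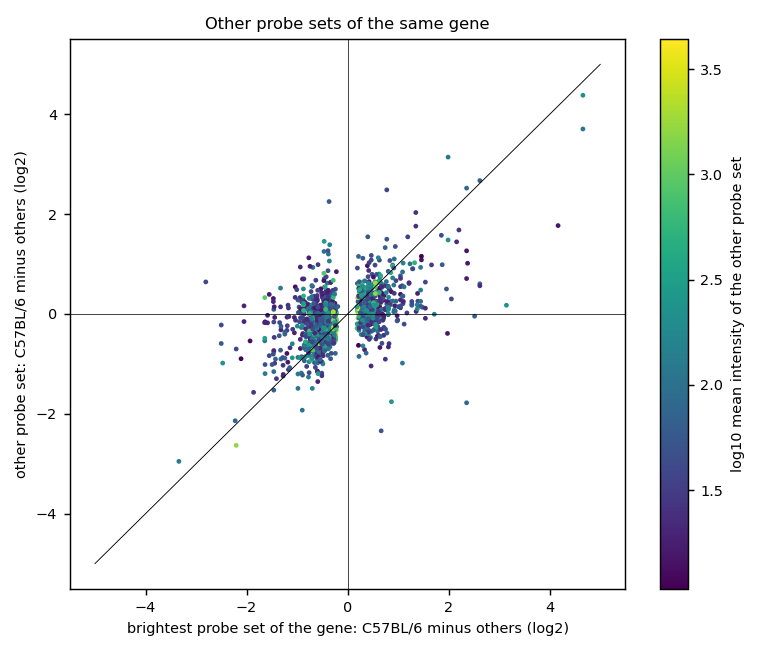
Log2 difference of C57BL/6 minus the other strains for the brightest probe set of a gene (horizontal) against each of its 1409 other tested probe sets (vertical), coloured by the mean intensity of the other probe set, with the line of equality. Of the points, 72.1% lie in the quadrants of equal sign, and Prdx2, Gfer, H2-D1 and Mtrex are among those far into the opposite quadrants.

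The promoters of called genes were searched for short motifs in the 250 bases upstream of the RefSeq start sites, which were held for 11670 of the 14477 tested genes. The sequences are those of the C57BL/6J reference, build GRCm38.p6, and those of the other strains were not used here. The letters searched, on both strands, were CCAAT (the CCAAT box), TCACNCCAC (a sterol response element), TGACNNNGC (an antioxidant response element), TATAAA (the TATA box) and TGACGTCA (the cyclic AMP response element, which meets CREM in spermatids). TGACGTCA was present in 30 of 611 higher genes (4.91%), in 23 of 775 lower genes (2.968%) and in 2.776% of all tested genes with a promoter. CCAAT was present in 42.06%, 39.61% and 39.73%, TCACNCCAC in 1.8%, 1.548% and 1.277%, TGACNNNGC in 13.91%, 13.55% and 13.46%, and TATAAA in 8.02%, 8.258% and 8.689%. Of 7 lower fatty acid genes with a promoter 5 held CCAAT, and none held TCACNCCAC. A match describes these letters only.

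The sequences shown are those of lower genes from the lists above and of a pair of higher genes that hold TGACGTCA, 5′ to 3′ with matches to the searched letters in capitals, on either strand. Gstm1 (its second listed start site) holds CCAAT on the opposite strand 97 and 91 bases and TATAAA 30 bases upstream of the start, and Gstm2 holds CCAAT 85 and 77 bases upstream. In Elovl5, CCAAT on the opposite strand lies 71 and 17 bases upstream, and Apoc2 holds none of the searched letters. Pop4, a subunit of RNase P, holds CCAAT 228 bases and TGACGTCA 38 bases upstream, and Chgb, a granin of secretory granules, TGACGTCA 72 bases upstream.
Gstm1, chr3:108017819-108018068, minus strand: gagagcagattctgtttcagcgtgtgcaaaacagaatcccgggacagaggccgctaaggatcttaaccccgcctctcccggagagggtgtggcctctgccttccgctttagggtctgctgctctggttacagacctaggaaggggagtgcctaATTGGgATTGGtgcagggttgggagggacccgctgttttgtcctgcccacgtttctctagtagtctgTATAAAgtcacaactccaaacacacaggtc
Gstm2, chr3:107986421-107986670, minus strand: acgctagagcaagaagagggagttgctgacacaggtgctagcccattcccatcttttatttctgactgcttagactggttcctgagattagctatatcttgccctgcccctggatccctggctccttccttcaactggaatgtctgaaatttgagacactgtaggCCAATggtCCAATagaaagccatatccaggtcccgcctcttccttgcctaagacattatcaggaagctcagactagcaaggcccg
Elovl5, chr9:77917115-77917364, plus strand: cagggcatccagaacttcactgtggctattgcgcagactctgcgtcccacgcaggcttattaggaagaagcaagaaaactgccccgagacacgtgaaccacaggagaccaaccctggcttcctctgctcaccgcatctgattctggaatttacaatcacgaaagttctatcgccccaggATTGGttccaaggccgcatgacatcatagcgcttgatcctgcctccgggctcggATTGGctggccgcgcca
Apoc2, chr7:19677942-19678191, minus strand: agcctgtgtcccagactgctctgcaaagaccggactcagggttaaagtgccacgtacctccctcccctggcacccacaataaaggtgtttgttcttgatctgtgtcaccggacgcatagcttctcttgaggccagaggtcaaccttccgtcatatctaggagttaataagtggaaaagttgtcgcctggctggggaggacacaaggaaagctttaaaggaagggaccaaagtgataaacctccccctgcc
Pop4, chr7:38271349-38271598, minus strand: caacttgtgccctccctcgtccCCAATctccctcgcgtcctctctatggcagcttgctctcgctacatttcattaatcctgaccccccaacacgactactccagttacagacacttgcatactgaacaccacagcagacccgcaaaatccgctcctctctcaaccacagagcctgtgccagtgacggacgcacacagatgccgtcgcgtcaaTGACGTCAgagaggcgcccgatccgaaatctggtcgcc
Chgb, chr2:132781392-132781641, plus strand: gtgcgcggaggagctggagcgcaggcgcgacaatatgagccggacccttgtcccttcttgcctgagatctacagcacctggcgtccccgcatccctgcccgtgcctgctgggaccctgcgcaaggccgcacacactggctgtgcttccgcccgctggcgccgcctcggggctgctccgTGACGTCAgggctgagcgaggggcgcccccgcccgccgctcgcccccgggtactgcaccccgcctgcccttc

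Pop4 read 258 and 256 units in C57BL/6, 92.9 and 89.3 in AKR/N and 110 and 89.7 in MRL/MpJ (1.30, SE 0.106, limma adjusted p = 2.753e-05). Chgb read 143 and 136 units against 30.8 to 42.2 (1.57, SE 0.135, limma adjusted p = 3.94e-05). Both were drawn from genes chosen for C57BL/6 arrays that did not overlap with the others, and the promoter was chosen for display after the values were seen.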

How the data were processed

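The files held the authors' deposited intensity of each of 45101 probe sets on 6 arrays, on a linear scale. Each array had the same mean (125.0 units after trimming 2% at each end), and the software that summarised the probes was not given in the sources used here. Intensities plus 16 were put on the log2 scale. Leaving out 64 control probe sets, 29692 with at least 2 arrays above the 40th percentile of their array were tested with limma 3.58.1 in R 4.3.3 (3 strain means, empirical Bayes with a variance trend, 3 residual and 7.58 prior degrees of freedom). Detection calls were not used here. Gene names came from the platform annotation: 34945 probe sets had 1 symbol, 932 several and 9160 none, and only the first were used. Named genes were the largest differences up and down, over all genes and at 100 units or more, genes with 3 or more concordant probe sets, the smallest adjusted p in each list, known strain variants and neighbouring runs. The largest differences were taken only among genes whose other tested probe sets, if any, all had the same sign. The members and lists were chosen with earlier results of these data known. Labels give 2 mice a strain, and nothing on batches. Alternatives tried were a filter at the 60th percentile or none, centring each array on its median, quantile normalization, no variance trend, added constants of 1 and 64, the other strains as 1 group, the replicate number as a block, the mean over a gene's probe sets and each array left out. A call kept in every setting was kept in all of these but the 60th percentile filter and the mean over a gene's probe sets. The fit was tested on simulated data.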

Additional observations from a re-analysis of the deposited data

How the results depend on the processing

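Probe sets called higher numbered 772 without the variance trend and 558 with AKR/N and MRL/MpJ as 1 group, and those called lower 752 and 637. Called, non-overlapping probe sets were 1424 and 1195, genes higher 336 and 285, and genes lower 398 and 378. For the lists, lower fatty acid genes were 5 and 6, peroxide defence genes 3 and 4, Leydig cell genes 2 and 3, and X-linked genes 8 and 9. With 1 array left out at a time, the ranges were 720 to 1261 probe sets higher, 869 to 1339 lower and 1507 to 2373 called and non-overlapping, 404 to 655 genes higher and 503 to 792 lower, 4 to 6 peroxide defence, 2 to 5 Leydig cell, 3 to 5 MHC and 19 to 33 X-linked genes. The lowest of these counts came without the second C57BL/6 array. When dim probe sets were kept, 67.83% of a gene's further probe sets agreed in sign. With a gene's probe sets averaged, the sign reversed for 9 named genes: Prdx2 (0.94), Trp53bp1 (0.26), Adh7 (-0.015), Rpp30 (-0.027), Pcgf5 (0.31), Gid4 (-0.045), Gfer (-0.45), Elmod3 (0.52) and Osbpl10 (0.16). A further 26 named genes lost their call with the average, and 77 did not change in call. The causes were not tested. The replicate numbers did not pair the mice (correlations of deviations between same-numbered arrays 0.0425 to 0.0493), and with the replicate block 3815 probe sets were called, 1803 higher and 2012 lower, of which 3317 did not overlap. Quantile normalization, median centring and the added constants of 1 and 64 reversed none of the 243 named genes. In that order, 5, 7, 7 and 1 of these genes lost their call, and 1 gained a call with quantile normalization. The call was lost by 82 without the variance trend and by 86 with AKR/N and MRL/MpJ as 1 group. Low signal limits every value under 20 units.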
